A study of Mus musculus with 12 samples.

Results

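The 10 genes described here encode the IL7 receptor pathway of B cells: the receptor chains Il7r, Il2rg and Il2ra, the kinases Jak1 and Jak3, the transcription factors Stat5a and Stat5b, and the inhibitors Socs1, Socs3 and Cish. They were chosen by symbol, and all 10 were found among the 23973 symbols that the deposited RNA-seq tables share. The RNA was that of primary B cells of littermate mice, either wild type (WT) or T58A. T58A changes a phosphorylation site of MYC through which that protein is marked for degradation. Marrow B cells were cultured with the cytokine IL7 and splenic B cells with LPS, a bacterial product that activates mature B cells, for 48 h each. Each of the 4 groups (IL7 WT, IL7 T58A, LPS WT, LPS T58A) had 3 libraries, and the titles give each WT library a numbered T58A partner. The labels give neither the zygosity of the mutation nor the age and sex of the mice, and they do not say which animals stand behind a library, so the spread between libraries may be technical in part.

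IL7 is bound by a receptor of the IL7 receptor alpha chain (Il7r) and the common gamma chain (Il2rg), which carry JAK1 and JAK3. The kinases phosphorylate STAT5A and STAT5B, which enter the nucleus and switch on genes that include Cish and the SOCS genes, whose products in turn shut the receptor down. In mice this pathway is required for the growth of B cell precursors, and mature B cells lose Il7r.

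Promoter sequence was read for all 10 genes from RefSeq (GRCm38.p6), in 12 windows that run from 250 bases before to 50 after an annotated start. The STAT5 motif TTCNNNGAA, which is its own reverse complement, was present in the windows of 3 of the 10 genes, Cish, Socs3 and Il7r. Of the 27025 genes in the annotation, 9.55% held this motif in any of their windows. Of the 32851 windows of that length, 8.3% held it and 0.457% held it at least 2 times. Cish held it 2 times, with first bases at positions 1 and 12 of the RefSeq transcript. Socs3 held it once at position -154 and Il7r once at position -142, counted from the RefSeq start. By the gene spans of GENCODE M21, which begin further upstream, the windows of these 3 genes lie wholly within the gene. The MYC motif CACGTG, also its own reverse complement, was in none of the 12 windows and in 7.15% of all. The windows of Cish, Socs3 and Il7r are shown because they hold the motif, and those of Il2ra and Il2rg because these genes changed in the cultures below. Each line runs 5′ to 3′ on the gene's strand from 200 bases before to 30 after the start, and capitals mark the STAT5 motif.
Cish (chr9:107296459-107296688, plus strand): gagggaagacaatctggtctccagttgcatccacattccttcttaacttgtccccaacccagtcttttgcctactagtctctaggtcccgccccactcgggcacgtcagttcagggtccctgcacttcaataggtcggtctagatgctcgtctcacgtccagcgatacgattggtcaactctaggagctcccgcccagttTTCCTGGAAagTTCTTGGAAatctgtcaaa
Socs3 (chr11:117969337-117969566, minus strand): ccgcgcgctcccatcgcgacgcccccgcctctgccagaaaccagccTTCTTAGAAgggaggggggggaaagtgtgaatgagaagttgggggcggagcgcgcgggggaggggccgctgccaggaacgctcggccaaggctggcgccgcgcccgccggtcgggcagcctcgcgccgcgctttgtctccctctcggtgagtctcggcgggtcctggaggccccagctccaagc
Il7r (chr15:9529847-9530076, minus strand): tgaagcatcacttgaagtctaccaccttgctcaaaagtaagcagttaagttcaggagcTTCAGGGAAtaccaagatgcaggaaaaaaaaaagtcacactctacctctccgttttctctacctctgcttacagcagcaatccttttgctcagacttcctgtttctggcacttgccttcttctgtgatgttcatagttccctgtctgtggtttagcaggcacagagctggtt
Il2ra (chr2:11642592-11642821, plus strand): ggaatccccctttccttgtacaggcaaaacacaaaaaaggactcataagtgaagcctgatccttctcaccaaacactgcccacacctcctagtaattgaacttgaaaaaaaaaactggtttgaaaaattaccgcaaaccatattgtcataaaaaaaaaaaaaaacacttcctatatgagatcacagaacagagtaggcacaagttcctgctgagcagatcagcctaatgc
Il2rg (chrX:101268226-101268455, minus strand): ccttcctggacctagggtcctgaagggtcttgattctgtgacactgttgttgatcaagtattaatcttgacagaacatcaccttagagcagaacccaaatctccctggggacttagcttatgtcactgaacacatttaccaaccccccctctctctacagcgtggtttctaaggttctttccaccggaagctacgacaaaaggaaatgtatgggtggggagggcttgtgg

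Depth ran from 5110746 to 10201113 gene reads per library. A count of 0 allows up to 3 reads, which is 2.15 to 4.12 normalised reads and covers counting error only. The cell labels were met by the markers. The B cell receptor gene Cd79a was at 4783 to 9325 normalised reads in all 12 libraries, and the precursor gene Dntt was at 1697 to 5364 in IL7 cultures and at 0 to 4.89 in LPS cultures. Xist, which is transcribed from the inactive X chromosome of females, was at 11281 to 23674 in WT 1 and WT 2 of both cultures and at 26.9 or less elsewhere, so sex moved with genotype in pairs 1 and 2. IL7 WT 2 held Xist together with Y-linked reads (31.7 of Kdm5d, against 466 in IL7 WT 3), and results that rest on its pair are given with and without it.

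In IL7 cultures 3 of the 10 genes fell in T58A cells when the pair was fitted as a block, and none rose. They were Il2rg, Il2ra and Socs3, at -30.7%, -35.9% and -29.5% by the fitted change. By the same test (limma over all genes, Benjamini-Hochberg adjusted p under 0.05) 12.7% of the 11604 genes tested were called, 6.31% lower and 6.41% higher. The median log2 change of the 10 was -0.26, against -0.01 over all genes tested, and 9 of the 10 were lower by the mean, as were 51.0% of all genes. All 3 calls depended on the block: without it limma called 0 of the 10 genes and 0 of all genes, with 3 of the 10 at an unadjusted p under 0.05. Without the block edgeR and DESeq2 on the recovered reads also called 0 of the 10. Over all genes edgeR then called 0 of 11604, and DESeq2 called 171 higher and 138 lower of 10026. With sex as a further term, a fit in which the genotype effect rests on pair 3, 0 of the 10 passed, with 0.362% of all genes called.

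**Figure D1:**
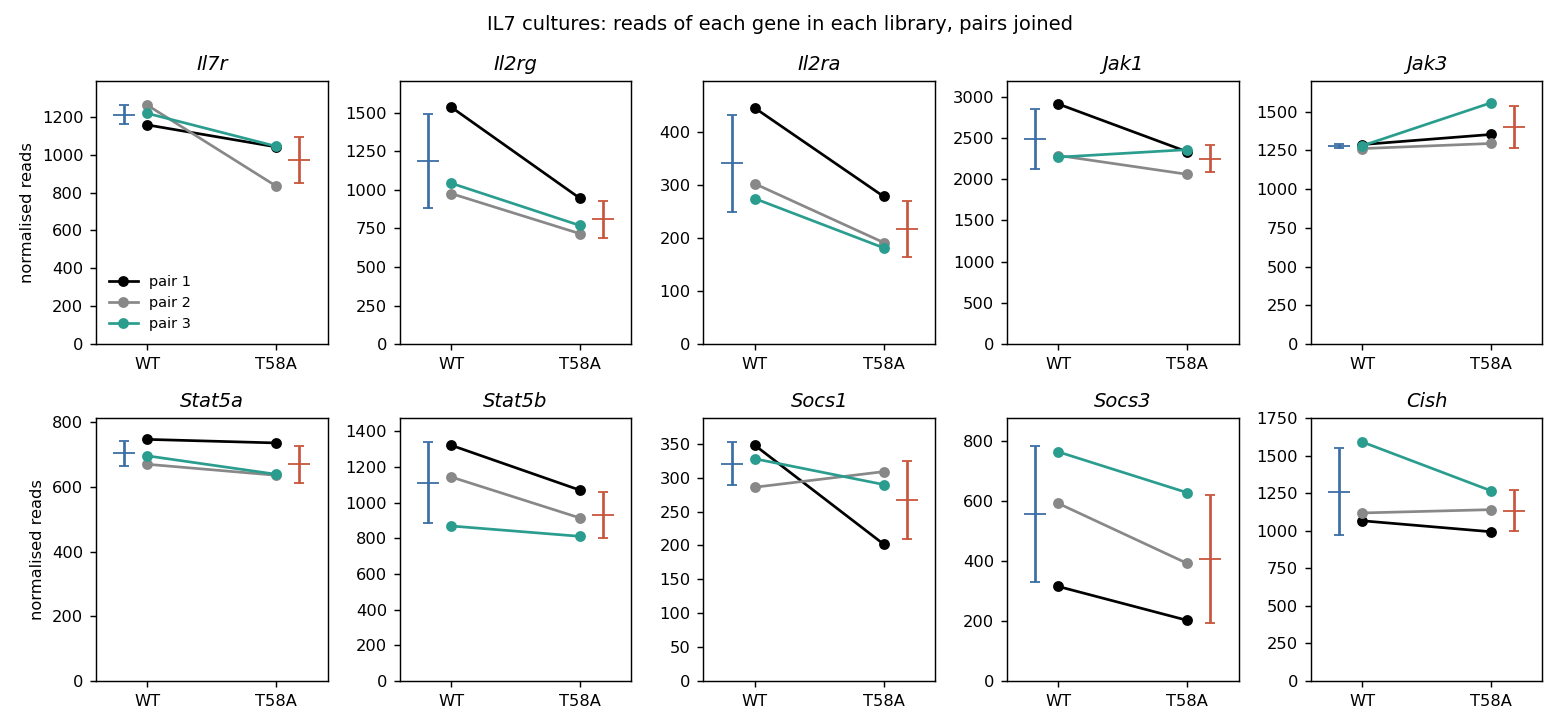
Normalised reads of each gene in the 6 IL7 libraries (vertical axes from 0), with a line joining the WT and the T58A library of a pair and bars giving mean and SD of 3. Il2rg, Il2ra and Socs3 fall along all 3 lines, while the lines of Socs3 start from levels as far apart as 315 and 764.

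The receptor chains came first among the genes that fell. Il2rg, the common gamma chain shared by the receptors of IL2, IL4, IL7, IL9, IL15 and IL21, lies on chromosome X from 101264378 to 101268255 (GRCm38, 8 exons). It was at 1536, 976 and 1043 normalised reads in IL7 WT 1, 2 and 3 and at 945, 716 and 769 in IL7 T58A 1, 2 and 3. Every T58A library lay below every WT library. The log2 change was -0.53 ± 0.08 (SE, limma adjusted p = 0.00757), and it was -0.70, -0.45 and -0.44 within pairs 1, 2 and 3. Without pair 2, where limma called 6.67% of all genes and 2 of the 10, it was -0.57 (limma adjusted p = 0.0164). The gene is X-linked, and sex moved with genotype in all pairs but pair 3, in which both libraries are male. With sex as a further term the log2 change was -0.44 (limma adjusted p = 0.343).

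Il2ra, the alpha chain of the IL2 receptor and a surface marker (CD25) of pre-B cells in mice, is also switched on by STAT5. Il2ra (chromosome 2, 11642807 to 11693193, 8 exons) was at 446, 303 and 275 normalised reads in IL7 WT 1, 2 and 3. It was at 279, 192 and 182 in the T58A libraries of the same numbers. The groups overlapped, since T58A 1 lay just above WT 3, but each pair fell by nearly the same amount, -0.68, -0.66 and -0.60 on the log2 scale. The change over the pairs was -0.64 ± 0.10 (SE, limma adjusted p = 0.00831), and it was -0.64 (limma adjusted p = 0.0286) without pair 2. With sex as a further term the log2 change was -0.60 (limma adjusted p = 0.312).

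Il7r, the alpha chain that makes the receptor specific for IL7 and TSLP, did not pass the test. Il7r (chromosome 15, 9505788 to 9530176, 8 exons) was at 1157, 1261 and 1218 normalised reads in the WT libraries and at 1041, 834 and 1044 in the T58A libraries of pairs 1, 2 and 3. All T58A values were below all WT values, as for Il2rg, and 10.8% of all genes tested had such an order. The log2 change was -0.32 ± 0.09 (SE) with a limma adjusted p of 0.0573. It rested in large part on pair 2, with -0.60 there against -0.15 and -0.22 in pairs 1 and 3. Without pair 2 it was -0.19 (limma adjusted p = 0.282), and with libraries scaled to total reads it passed, at -0.35 and 0.0474. Leaving out either library of pair 1 also made it pass, at -0.41 and limma adjusted p-values of 0.00397 and 0.00436.

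The kinases and transcription factors did not pass in either direction. Jak1, which binds the IL7 receptor alpha chain, was at 2912, 2288 and 2268 normalised reads in IL7 WT 1, 2 and 3 and at 2333, 2060 and 2359 in T58A, a log2 change of -0.14 ± 0.08 (SE, limma adjusted p = 0.283). Jak3, which binds the common gamma chain, was at 1287, 1261 and 1279 in WT and at 1352, 1294 and 1556 in T58A. Jak3 was the single member whose mean was higher in T58A, and its groups did not overlap, an order found for 12.9% of all genes. Its log2 change of 0.13 ± 0.07 (SE) had a limma adjusted p of 0.277.

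Stat5a and Stat5b lie next to each other on chromosome 11 and encode closely similar proteins. How reads from stretches that the transcripts share were assigned is not given in the sources used here, so the split between them is uncertain. Stat5a was at 747, 670 and 696 normalised reads in the WT libraries and at 736, 636 and 639 in T58A, a log2 change of -0.07 ± 0.08 (SE, limma adjusted p = 0.551). Stat5b went from 1322 to 1070, from 1144 to 914 and from 869 to 811 in pairs 1, 2 and 3, a log2 change of -0.24 ± 0.08 (SE, limma adjusted p = 0.072). Both were lower in each pair, with overlapping groups.

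Of the inhibitors, Socs3 fell. Socs3, which binds cytokine receptors and JAKs and blocks signalling, lies on chromosome 11 from 117966079 to 117970047 (2 exons). It went from 315 to 202 normalised reads in pair 1, from 592 to 392 in pair 2 and from 764 to 628 in pair 3. The pairs differed more than the genotypes, and T58A 3 lay above WT 1 and WT 2. The log2 change was -0.50 ± 0.10 (SE, limma adjusted p = 0.0172). Without pair 2 it was -0.46, and the limma adjusted p of 0.0706 no longer passed. With sex as a further term it was -0.28 (limma adjusted p = 0.607).

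Socs1, a direct inhibitor of JAK kinases, was at 348, 286 and 328 normalised reads in WT and at 202, 309 and 290 in T58A. It was lower in pairs 1 and 3 and higher in pair 2. The log2 change was -0.28 ± 0.16 (SE) at a limma adjusted p of 0.269. It was -0.48 without pair 2 (limma adjusted p = 0.116) and -0.03 without either library of pair 1. Cish, the founding member of the family and a textbook STAT5 target, was at 1066, 1118 and 1591 in WT and at 993, 1140 and 1266 in T58A. Its log2 change of -0.13 ± 0.08 (SE) had a limma adjusted p of 0.311. Of the genes whose windows hold the STAT5 motif, Socs3 was called and Cish and Il7r were not, and of those without it, Il2ra and Il2rg were called.

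In all, 6 of the 10 genes were lower in T58A in all 3 pairs, as were 26.0% of the genes tested. They were Il7r, Il2rg, Il2ra, Stat5a, Stat5b and Socs3. Jak3 alone was higher in all 3, as were 25.9%. In the authors' deposited table, where 9.64% of genes with an adjusted p are called, the same 3 genes pass, Il2rg at a log2 change of -0.49 (adjusted p = 0.000196), Il2ra at -0.53 (0.00517) and Socs3 at -0.42 (0.0176). Il7r is at -0.29 (adjusted p = 0.0684) in the authors' deposited table.

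Mature B cell markers were also measured in IL7 cultures. Of the 8 listed, 6 fell in IL7 T58A cultures with the pair as a block, 5 without pair 2 and 3 with sex as a further term. The 6 were H2-Ab1, H2-Eb1, Cd74, Ciita, Cd83 and Cd86. Cr2 and Fcer2a did not pass and were higher in T58A in pair 1 (log2 change 0.07 and 0.39). The summed level of the 8 was 31299, 15467 and 8190 normalised reads in WT 1, 2 and 3 and 13663, 7386 and 3977 in T58A 1, 2 and 3. Cd74 alone was at 5563 to 22038 in WT. Il2ra had the same order over the 6 libraries as this sum, with WT 1 highest, then WT 2, T58A 1, WT 3, T58A 2 and T58A 3. Il2rg was highest in WT 1 as well but did not keep that order, at 1043 in WT 3 and 976 in WT 2. Socs3 was lowest in pair 1, where the sum was highest. The part of the mature B cell markers in the falls of Il2rg, Il2ra and Socs3 was not tested. Of the 6 general B cell markers 3 fell with the pair as a block, also without pair 2: Cd79a (-0.46 ± 0.09), Cd79b (-0.53 ± 0.10) and Ms4a1 (-0.77 ± 0.08, SE). Their summed level went from 50687 to 33401 normalised reads in pair 1, from 34606 to 29385 in pair 2 and from 31503 to 26572 in pair 3. Of the 8 precursor markers 2 fell, Rag1 and Rag2, with sums of 21045 to 26701 in WT and 20120 to 22629 in T58A. In bulk RNA, fewer cells of a type and less RNA per cell cannot be told apart.

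**Figure D2:**
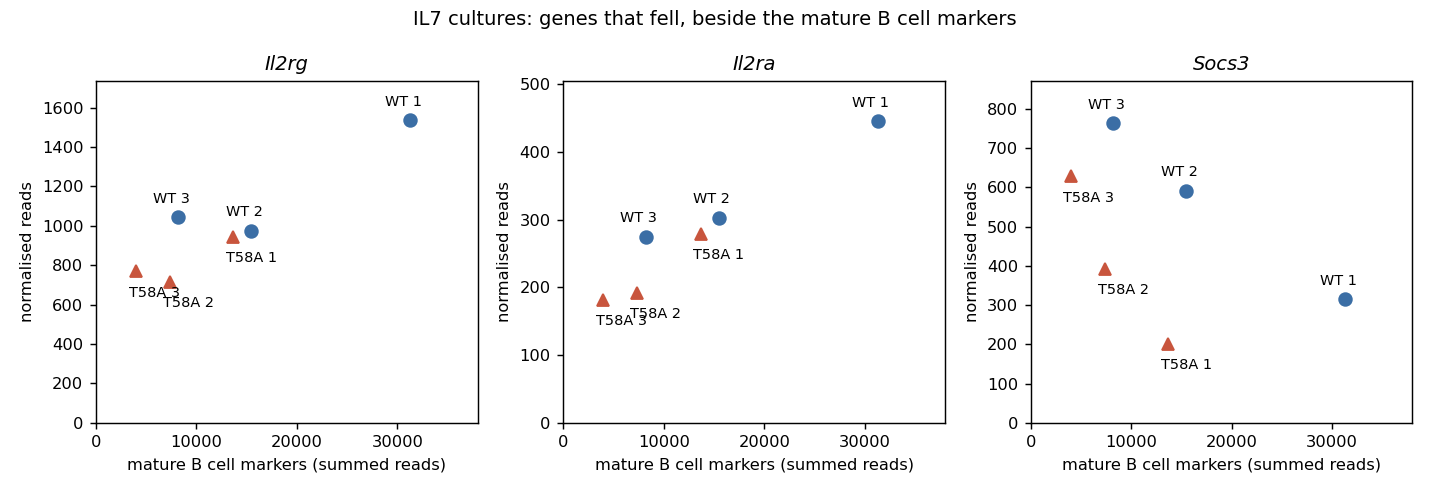
Normalised reads of Il2rg, Il2ra and Socs3 in each IL7 library (vertical axes) against the summed normalised reads of 8 mature B cell markers (horizontal axes), circles WT and triangles T58A. Il2ra follows the order of the marker sum, from 182 at 3977 to 446 at 31299, and Il2rg and Socs3 do not.

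Markers of other cells were measured in the same way. Of the 5 plasmablast markers tested in IL7 cultures, Sdc1 rose from 306 ± 16.6 to 425 ± 26.1 normalised reads (SD, n = 3; limma adjusted p = 0.0154), also without pair 2, and Igj fell (-2.05 ± 0.54, limma adjusted p = 0.0417) but did not pass without pair 2. The plasmablast sum was 5464 to 6564 in WT and 5951 to 6383 in T58A. The 8 T cell markers summed to 70.7 to 72.4 normalised reads in WT and 34.2 to 46.5 in T58A of the IL7 cultures, with Cd3e at 0 to 4.3, and 0 of the 2 that could be tested passed. The 6 markers of NK and innate lymphoid cells summed to 27.2 to 34.3 in WT and 11.8 to 26.9 in T58A, none of them high enough to test. The 8 myeloid markers summed to 486 to 1691 in WT and 335 to 761 in T58A, with 0 of 6 tested passing. Without pair 2, 4 of them were called lower, and with sex as a further term 2 were. Their part in the falls was not tested.

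The members also varied between pairs. In both genotypes of the IL7 cultures, Il2rg, Il2ra, Stat5a and Stat5b were highest in pair 1, and Socs3 and Cish were highest in pair 3. Over the 6 IL7 libraries Il2ra and Il2rg had a Pearson correlation of 0.96 on the log2 scale, and Cish and Socs3 one of 0.83, while Socs3 and Il2ra had -0.30. These are descriptions over libraries that share pairs and genotypes. The genes most like Il2ra over these libraries were Brpf3, Gng2, Msn, Ypel5 and Psd (Pearson 0.994 to 0.998, n = 6). Those most like Cish were Glrx3, Atp5j, Zfp326, Etv3 and Rab5a (0.976 to 0.993), and those most like Il7r were Lemd3, Cep70, Brdt, Adam1a and Cep120 (0.983 to 0.999). Each set was taken from the 11604 genes tested, after genes with only a predicted or clone symbol were left out.

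In LPS cultures, fitted without a block, 0 of the 10 genes passed limma, and 0% of all 11291 genes tested were called. None of the 10 reached an unadjusted p under 0.05, and edgeR and DESeq2 without a block also called 0 of them. In IL7 cultures limma without the block also called 0 of the 10, so the counts of 3 and 0 come from unlike fits. With the LPS libraries blocked by pair, as given below, limma called 0 of the 10 and 0.0354% of all genes. DESeq2 with that block called 1, Stat5a, with 72 genes higher and 141 lower of 6694. The median log2 change of the 10 was 0.01, the same as over all genes tested, with 5 of the 10 lower by the mean, as were 47.6% of all genes.

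**Figure D3:**
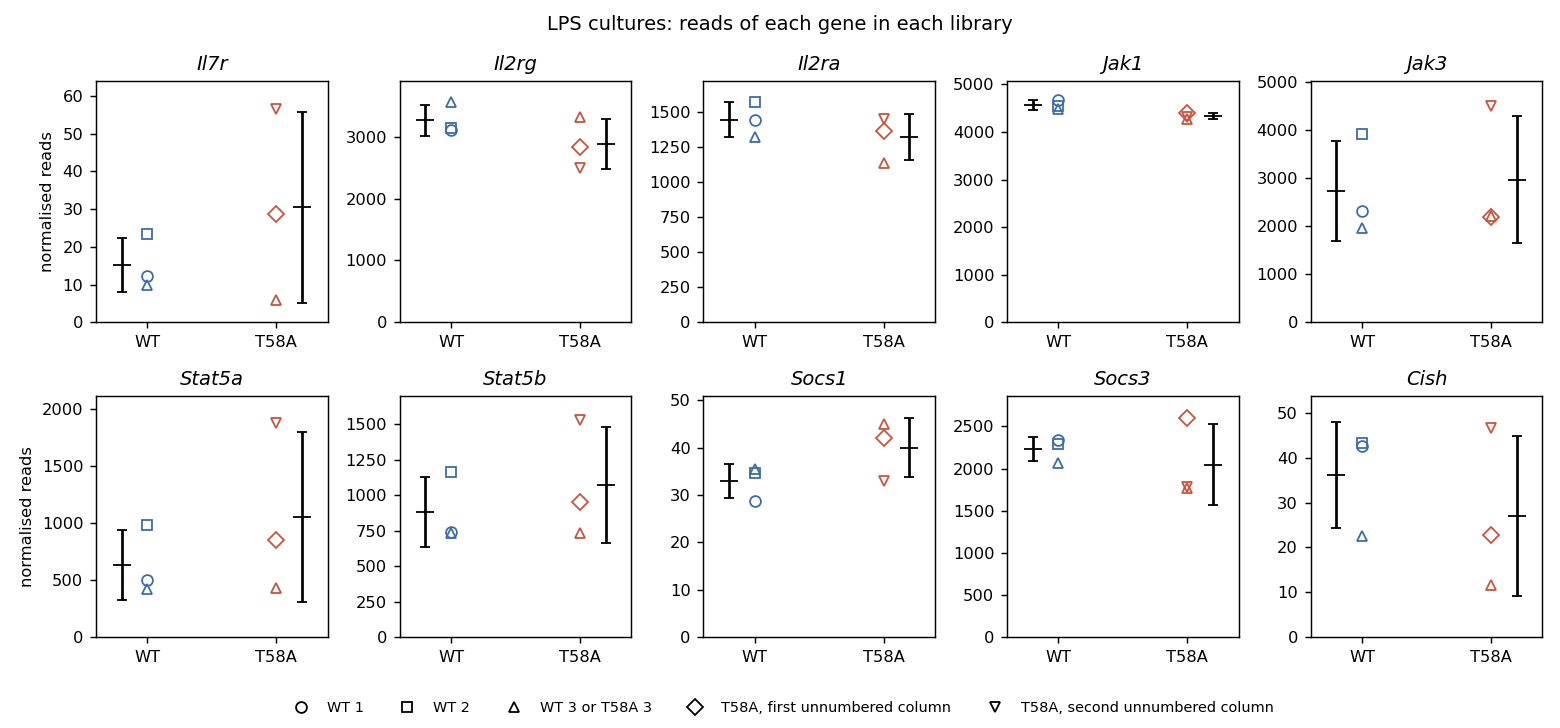
Normalised reads of each gene in the 6 LPS libraries (vertical axes from 0), with 1 symbol per library and bars giving mean and SD of 3. WT 2 and the second unnumbered T58A column stand above the rest for Jak3 and Stat5a.

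Stat5a, Stat5b and Jak3 varied widely between LPS libraries. A pair of T58A columns carries the same header in the LPS table, so they are named here by their order, as first and second unnumbered. Stat5a was at 497, 985 and 422 normalised reads in LPS WT 1, 2 and 3. In T58A it was at 851 and 1876 in the first and the second unnumbered column and at 434 in T58A 3. The groups overlapped, and the log2 change of 0.58 ± 0.49 (SE) had a limma adjusted p of 1. In the authors' deposited table Stat5a is at a log2 change of 0.48 with an adjusted p of 0.0109, where 4.20% of genes with an adjusted p are called. Blocked by pair, taking the first unnumbered column as the partner of WT 1 and the second as that of WT 2, limma gave 0.58 ± 0.15 (SE, adjusted p = 0.122, with 0.0354% of all genes called) and DESeq2 0.59 (adjusted p = 0.0166). With the columns exchanged the limma adjusted p was 1. Without the second unnumbered column the log2 change was 0.04.

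Stat5b was at 739, 1165 and 735 normalised reads in LPS WT 1, 2 and 3, at 952 and 1528 in the unnumbered T58A columns and at 736 in T58A 3. It had the same order of libraries at the top as Stat5a, with a log2 change of 0.25 ± 0.28 (SE) at a limma adjusted p of 1. Jak3 was at 3918 in WT 2 and 4496 in the second unnumbered column, against 1954 to 2320 in the other 4 libraries. These 2 libraries also held the lowest sums of plasmablast markers, 19399 in the second unnumbered column and 31938 in WT 2, with 34508 to 84330 in the other libraries. The part of plasmablast content in the levels of these genes was not tested.

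None of the other genes of the LPS cultures passed. Jak1 was at 4484 to 4672 normalised reads in WT and 4277 to 4396 in T58A, without overlap, an order with T58A below that 3.30% of all genes had, and none of the 10 had all T58A libraries above WT, as 3.10% did. Its log2 change was -0.08 ± 0.14 (SE, limma adjusted p = 1). Il2rg was at 3268 ± 251 in WT and 2885 ± 409 in T58A, Il2ra at 1448 ± 125 and 1321 ± 164, and Socs3 at 2232 ± 143 and 2048 ± 478 (SD, n = 3). Their log2 changes were -0.19 ± 0.16, -0.14 ± 0.16 and -0.15 ± 0.18 (SE). Il7r was at 15.2 ± 7.18 and 30.4 ± 25.4, from 6 to 79 reads per library. Socs1 was at 32.9 ± 3.56 and 40 ± 6.25, and Cish at 36.1 ± 11.7 and 27 ± 17.8 (SD, n = 3). The adjusted p of each of these by limma was 1.

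The test of the difference between the cultures asks whether T58A acts unequally on these genes in IL7 and LPS cells. By limma over all 12 libraries, without a block in either culture, 0 of the 10 passed, and 0% of 12086 genes did. At an unadjusted p under 0.05 there were 0 of the 10. DESeq2 and edgeR on the recovered reads, also without a block, called 0 of the 10. Over all genes DESeq2 called 5 higher and 0 lower, and edgeR called 0. Il2ra, with log2 changes of -0.64 in IL7 and -0.14 in LPS cultures, had a difference of 0.51 ± 0.28 (SE, limma adjusted p = 0.995). With the pair as a block in both cultures, the unnumbered columns placed as above, the difference was 0.51 ± 0.10 (SE, limma adjusted p = 0.0319), and 3.09% of all genes passed. The differences of Il2rg and Socs3, 0.34 and 0.36, did not pass with the block (limma adjusted p = 0.134 and 0.243). For these genes a fall in IL7 cells is not shown to be limited to them.

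**Figure D4:**
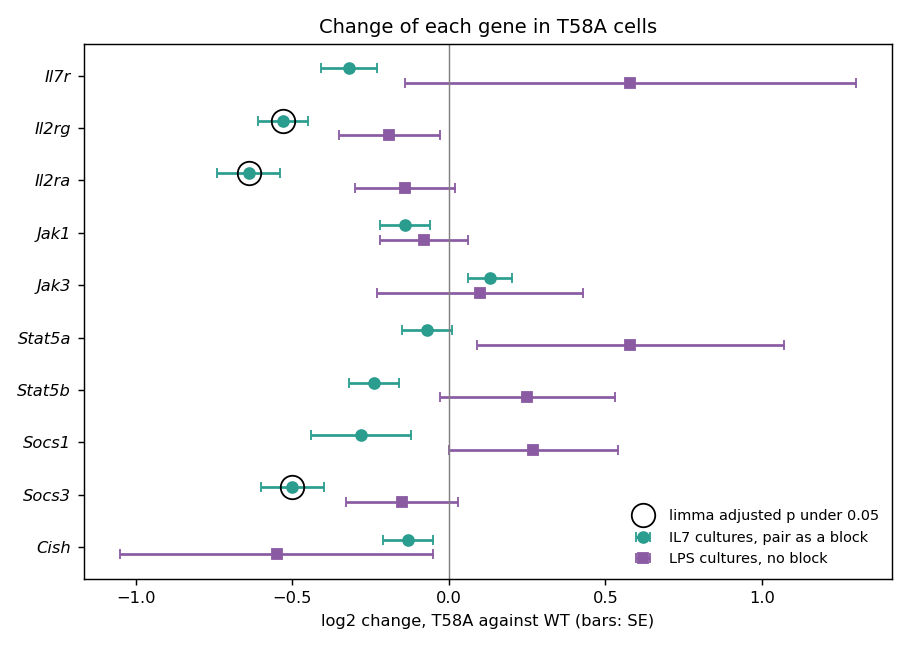
Log2 change in T58A against WT for each gene (horizontal axis), with bars giving the SE, circles for IL7 cultures with the pair as a block and squares for LPS cultures without a block. Il2rg, Il2ra and Socs3, at -0.53, -0.64 and -0.50 in IL7 cultures, carry the ring that marks an adjusted p under 0.05.

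Several of the genes stood at unlike levels in WT cells of the cultures. The tables were normalised separately and culture goes with tissue and stimulus, so these levels were not tested against each other. In reads per 1000000 (RPM), Il7r was at 131 ± 5.8 in IL7 WT and 2.23 ± 1.11 in LPS WT, a ratio of 58.7. Cish was at 135 ± 30.3 and 5.27 ± 1.73 (ratio 25.7), and Socs1 at 34.5 ± 3.32 and 4.8 ± 0.602 (ratio 7.19; SD, n = 3). The other 7 genes had a higher mean in LPS WT. Among them Il2ra was at 36.8 ± 9.91 in IL7 and 211 ± 21.8 in LPS WT (ratio 5.74), Socs3 at 59.9 ± 24.2 and 325 ± 22 (ratio 5.42), and Il2rg at 128 ± 33.1 and 476 ± 37.7 (ratio 3.73). The inhibitors thus differed in order, with Cish and Socs1 more abundant in IL7 cultures and Socs3 more abundant in LPS cultures. Stat5a and Stat5b were close in the cultures, with ratios of 1.23 and 1.07 and overlapping ranges.

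Per length, as RPM per kilobase of transcript (RPKM), the order in IL7 WT ran from Il2rg (76.4), Jak1 (54.7) and Cish (47.5) over Il7r (36.9) and Jak3 (34.2) to Socs3 (23.5), Stat5b (23), Stat5a (19.5), Socs1 (11.9) and Il2ra (8.34). The ranges of neighbours overlapped from Il2rg to Cish, from Socs3 to Stat5a and between Socs1 and Il2ra. In LPS WT the order ran from Il2rg (285), Jak1 (136), Socs3 (127) and Jak3 (99.5) over Il2ra (47.8), Stat5b (24.7) and Stat5a (23.9) to Cish (1.85), Socs1 (1.65) and Il7r (0.629). There the ranges overlapped from Jak1 to Jak3, between Stat5b and Stat5a and between Cish and Socs1. The common gamma chain was the most abundant of the 10 transcripts per length in both.

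**Figure D5:**
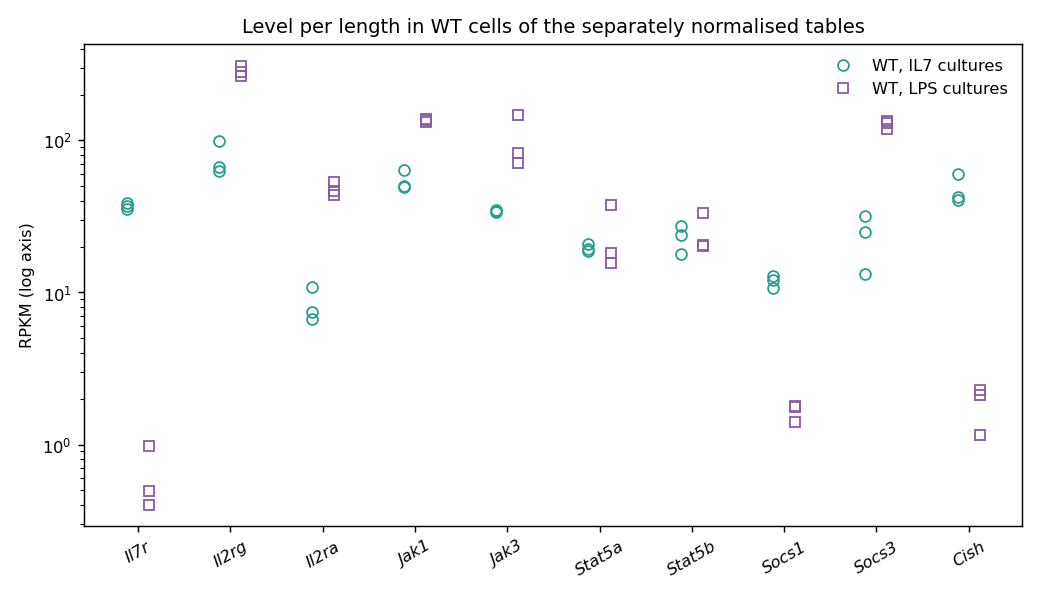
RPKM (log axis) of each gene in the 3 WT libraries of IL7 cultures (circles) and of LPS cultures (squares), from tables normalised separately and so not tested. Il7r, Cish and Socs1 are higher in IL7 cultures, and Il2rg, Il2ra, Jak1, Jak3 and Socs3 in LPS cultures.

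The rest of the pathway was read from lists. Of the other receptors of the gamma chain family and its relatives, 3 of 5 tested fell in IL7 T58A cultures with the pair as a block, with a median log2 change of -0.55. Il21r, the IL21 receptor, went from 460 ± 209 to 217 ± 60 normalised reads (SD, n = 3), a log2 change of -1.02 ± 0.13 (SE, limma adjusted p = 0.00468). Crlf2, which pairs with the IL7 receptor alpha chain to bind TSLP, changed by -0.55 ± 0.13 and Il2rb, the beta chain for IL2 and IL15, by -1.28 ± 0.32, from 28.4 ± 2.23 to 11.1 ± 1.36 reads (SD, n = 3). Il21r alone passed without pair 2. In the authors' deposited table for IL7 cultures Il2rb is at -0.35, without an adjusted p. Of these receptors in LPS cultures, 4 of 7 tested were lower by the mean and 0 passed, with Il2rb at -1.08 ± 0.33 (SE).

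Of the other JAK and STAT genes, 4 of 7 fell and none rose, with a median of -0.40. Stat2, which acts in the interferon response, changed by -0.40 ± 0.08 (SE, limma adjusted p = 0.0196). Jak2 changed by -0.41 ± 0.09 and Stat4 by -0.72 ± 0.17 (limma adjusted p = 0.0275 and 0.0319). None of these 3 passed without pair 2 (limma adjusted p = 0.0598, 0.111 and 0.119).

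The other brakes went both ways, with 2 of 15 higher and 3 lower, and a median of -0.09. Cbl, a ubiquitin ligase for activated receptors, rose from 437 ± 128 to 727 ± 12 normalised reads (SD, n = 3), a log2 change of 0.77 ± 0.14 (SE, limma adjusted p = 0.0131). Ptpn11, a phosphatase that also promotes growth factor signalling, rose by 0.29 ± 0.06. Ptprc (CD45), Socs5 and Ptpn6 (SHP-1) changed by -0.44 ± 0.08, -0.61 ± 0.13 and -0.60 ± 0.14. Without pair 2, Cbl rose and Socs5 and Ptpn6 fell. In the authors' deposited table Cbl, Ptpn11 and Ptprc pass, and Socs5 and Ptpn6 do not (adjusted p = 0.0642 and 0.0924).

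Of 9 listed STAT5 targets 8 were tested, of which 1 was called higher and 4 lower, and the median log2 change was -0.36. Ccnd2, a cyclin of the G1 phase, rose by 0.33 ± 0.08 (SE, limma adjusted p = 0.0272). The survival genes Mcl1 and Bcl2l1 changed by -0.39 ± 0.07 and -0.52 ± 0.09, the kinase gene Pim1 by -0.34 ± 0.06, and Bcl6, which STAT5 represses, by -0.83 ± 0.16. Without pair 2, Ccnd2 rose and Mcl1 and Bcl2l1 fell.

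In the list of genes restrained by IL7 signalling in B cell precursors, none was called higher. Whether IL7 restrains the RNA of each of them in these cells was not tested. Of 11 tested 4 fell, with a median of -0.14: Rag1 from 2446 to 1440 normalised reads (limma adjusted p = 0.00219), Rag2 (-0.84 ± 0.15), Foxo1 (-0.47 ± 0.08) and Blnk (-0.39 ± 0.07). All 4 also passed without pair 2. With sex as a further term Rag1 alone of these 5 lists passed (-0.83, limma adjusted p = 0.0464). Without the block none of the genes of these lists passed limma in IL7 cultures, and none passed in LPS cultures. Of the STAT5 targets in LPS cultures, Bcl2l1 was at a log2 change of -0.39 ± 0.15 and Pim1 at -0.36 ± 0.15 (SE), both at a limma adjusted p of 1. In the authors' deposited table Bcl2l1 is at -0.34 (adjusted p = 0.036) and Pim1 at -0.32 (0.0282). From the other lists, Irf4 is at -0.45 there (adjusted p = 0.000591) and Stat4 at 0.38 (0.0346), the latter opposite to its fall in IL7 cultures. By limma Irf4 was at -0.51 ± 0.21 and Stat4 at 0.44 ± 0.29 (SE) in LPS cultures, and neither passed.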

How the data were processed

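Gene expression was measured by RNA-seq in 12 libraries, 3 of each culture and genotype. Per the submitters' processing notes, reads were processed with bcl2fastq 1.8.4, TopHat2 2.1.0, HTSeq 0.6.1 and DESeq2 (version not given in the sources used here) on mm10. The authors deposited a signal per gene and library. The values are whole reads divided by 1 size factor per library: dividing by the smallest step gave whole numbers within 0.001 for 100% of values. Beside these, the authors' tables give each gene's log2 fold change with its p-value, raw and adjusted.

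Low genes were removed per culture by edgeR 4.0.16 (filterByExpr, from recovered reads, with 10 as the minimum count and 15 as the minimum total). log2(value + 1) was tested with limma 3.58.1 (trend) in R 4.3.3 over all genes at an adjusted p under 0.05. A log2 change on this scale understates the change of low genes. The pair of the titles was a block in IL7 cultures. Same-numbered libraries deviated together (correlations 0.41, 0.15 and 0.4 over genes, others -0.36 to -0.05), and DESeq2 1.42.0 with the block gave 94.0% of the authors' p-values within 1%, against 15.8% without it. LPS cultures and the difference between the cultures were fitted without a block, since a pair of LPS columns shares a header. The deposited LPS p-values were matched for 99.7% of genes with the first unnumbered column paired with WT 1, for 17.0% with the columns exchanged and for 14.6% without a block. The members, lists, marker lists and tests were chosen with earlier results of these data known. Named genes were all members, and from each list the genes that passed and those with the smallest p per direction (up to 3 in IL7 and 2 in LPS cultures), not all of which are reported here. Locations and transcript lengths (longest principal transcript) came from GENCODE M21 on GRCm38, which may not be the release the authors used. The fits were tested on simulated data. Alternatives were other scalings, pseudocounts, filters, tools, blocks, sex as a term and leaving out libraries. Figures were drawn with matplotlib 3.10.9.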

Additional observations from a re-analysis of the deposited data

How the results depend on the processing

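In IL7 cultures the count of 3 called members was 3 or 4 under other scalings, pseudocounts, no filter, edgeR, DESeq2 and limma-voom with the block, and 2 to 4 when each library was left out. With the block, leaving out either library of a pair gave the same log2 changes, since its partner then has nothing to be compared with. These fits are therefore checks by pair and not by library. The count was 2 without pair 2. It was 0 with no replicate block in limma, edgeR or DESeq2 and 0 with sex added to the block. Over all genes edgeR with the block called 670 higher and 754 lower, and no replicate block in DESeq2 gave 171 and 138. Of the values of single members, 171 kept direction and side of the threshold, 15 lost the call, 3 gained it and 1 reversed, Jak1 at 0.06 with sex in the block. In LPS cultures the count was 0 throughout, except 1 (Stat5a) with the replicate block in DESeq2, an alternative chosen after seeing the data. There DESeq2 with the block gave 72 higher and 141 lower genes, against 2 and 2 by limma with the block. Leave-one-out ranges that crossed 0 in LPS cultures were -0.09 to 1.45 for Il7r, -0.25 to 0.39 for Jak3 and -0.04 to 0.49 for Stat5b. For the difference between the cultures the count was 0, except 1 (Il2ra) with the replicate block in both. Its ranges that crossed 0 were -0.06 to 0.12 for Jak1, -0.38 to 0.26 for Jak3, -0.07 to 0.74 for Socs3 and -0.90 to 0.05 for Cish, and Jak3 was at 0.01 scaled by total reads. The causes were not tested. Il7r had 6 to 79 reads in the LPS libraries, so its values there carry a large counting error.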
